A study of Mus musculus with 23 samples.

Results

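Mcts2, H13 and Gnas are imprinted genes on mouse chromosome 2. They were chosen here because their allelic expression largely held in embryos without Zfp57, and they make up 3 of the 26183 genes counted in each embryo. The P-scores across the genotypes therefore chose the members, with no threshold, and all values by genotype are given below as a description with no test.

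Genomic imprinting is the expression of a gene from only its maternal or its paternal allele, and it is set by DNA methylation placed on an imprinting control region in 1 parental germline. ZFP57 is a KRAB zinc finger protein that binds methylated TGCCGC sites at these regions and keeps their methylation in the early embryo. Mcts2 is a retrogene copied from the X-linked Mcts1 and is expressed from the paternal allele. It lies in an intron of H13, which encodes signal peptide peptidase, a protease that cuts signal peptides in the membrane of the endoplasmic reticulum. Gnas encodes the stimulatory G protein subunit Gs alpha, which couples hormone receptors to adenylyl cyclase. Its alternative starts give oppositely imprinted transcripts, with Nesp read from the maternal allele, XLas and exon 1A from the paternal allele, and Gs alpha from both alleles in most tissues.

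RNA-seq was performed on 23 whole E13.5 embryos of a 129/DBA hybrid background, 13 female and 10 male. M+Z+ embryos had maternal and zygotic Zfp57 and carried 1 mutant allele according to their titles (6 females, 4 males). M-Z+ embryos were heterozygous embryos of Zfp57-/- mothers (3 females, 3 males), and M-Z- embryos were Zfp57-/- embryos of Zfp57-/- mothers (4 females, 3 males). The paper measured DNA methylation across the genome in other embryos. It lists the control regions Mcts2, Nespas and Gnas1A among those with a similar loss of methylation in M-Z- embryos of both sexes. In all embryos the mother was 129 and the father was mainly DBA/2J, with no reciprocal cross, so a paternal read is also a DBA read and the effects of parent and of strain cannot be told apart. The mutant allele of the fathers came from 129 mice by backcrossing to DBA/2J, and 129 sequence left around it would be read as maternal. Its part in the allelic calls below was not tested. Reads split by allele could be matched to 19 of the embryos, because the allele columns of 4 M+Z+ females share header names. The female M+Z+ group therefore has 6 embryos for levels but 2 (embryos 1 and 2) for all values by allele.

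The total count was 15.2 to 24.1 M reads per embryo (median 17.4 M), and 2.46 to 3.94 M of them were assigned to an allele in the matched embryos. Zfp57 itself, counted over the whole gene, was at 25.5 to 35.3 CPM (counts scaled to the total of the embryo) in the M-Z- embryos and at 52.7 to 99.1 CPM in the other embryos. The log2 fold change of Zfp57 in M-Z- against M+Z+ embryos was -1.02 ± 0.14 (SE) in females (edgeR adjusted p = 0.000399) and -1.33 ± 0.11 in males (edgeR adjusted p = 4.69e-05). Markers of liver, blood, nerve, muscle, heart and cartilage were all present, and the summed level of 4 placenta markers was 0.0415 to 0.428 CPM. In these whole-embryo libraries, fewer cells of a type and less RNA per cell cannot be told apart. Male M-Z- embryo 2 stood apart, with 26272 CPM summed over 6 erythroid markers against 2298 to 9860 CPM in the other embryos. Of 46 cell type markers, 41 could be tested, and edgeR called 1 in M-Z- females, Apob, a lipoprotein gene of yolk sac and liver (-0.85 ± 0.18, adjusted p = 0.0266), and 0 in M-Z- males and in M-Z+ embryos of either sex. The number at an unadjusted p below 0.05 was 18 in M-Z- females (43.9%, against 15.5% of all genes tested) and 15 in M-Z- males (36.6%, against 17% of all genes). It was 1 (2.44%, against 6.64%) in M-Z+ females and 3 (7.32%, against 7.86%) in M-Z+ males. In M-Z- females the 18 included all 5 liver and 3 of 6 erythroid markers, and in M-Z- males the 15 included 4 of 5 liver, 5 of 6 erythroid and 3 of 4 heart markers. DESeq2 called Apob in M-Z- females, the embryonic globin gene Hbb-bh1 in M-Z- males and 0 in M-Z+ embryos. Nothing in the labels says that the embryos came from separate litters, so p-values measure the spread between these embryos.

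In the mm9 assembly, H13 spans chr2:152495197-152534404 on the plus strand, and its exons cover 9936 bases. Mcts2 is a single exon of 795 bases at chr2:152512884-152513678 on the same strand. It sits in an H13 intron of 1955 bases, 440 bases after the exon before it and 720 bases before the next one, and 17.7 kb from the start of H13. Gnas lies 21.6 Mb further along, at chr2:174109821-174172243 on the plus strand, with 8190 bases of exon. The start of Nesp is at 174109821, that of XLas at 174123360, that of exon 1A at 174153250 and that of Gs alpha at 174155507. These 4 starts splice into shared downstream exons, so the single Gnas value sums transcripts that are oppositely imprinted.

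The 250 bases before the starts of Mcts2, H13 and Gnas exon 1A are shown because the members were chosen on an allelic state that largely held without ZFP57, whose motif is TGCCGC. They were read from the NCBIM37 (mm9) genome, plus strand, 5′ to 3′, and matches to TGCCGC on either strand are in capitals. The windows are chr2:152512634-152512883, chr2:152494947-152495196 and chr2:174153000-174153249.
Mcts2: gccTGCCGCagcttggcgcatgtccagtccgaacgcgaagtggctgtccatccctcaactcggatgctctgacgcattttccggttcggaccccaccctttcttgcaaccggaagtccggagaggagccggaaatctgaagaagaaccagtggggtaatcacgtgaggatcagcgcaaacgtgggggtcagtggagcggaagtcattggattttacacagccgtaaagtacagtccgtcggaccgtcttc
H13: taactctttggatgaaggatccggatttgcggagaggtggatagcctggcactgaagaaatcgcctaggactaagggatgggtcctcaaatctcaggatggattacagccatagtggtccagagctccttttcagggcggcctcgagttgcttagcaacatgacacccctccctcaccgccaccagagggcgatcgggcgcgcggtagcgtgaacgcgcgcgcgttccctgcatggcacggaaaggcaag
Gnas exon 1A: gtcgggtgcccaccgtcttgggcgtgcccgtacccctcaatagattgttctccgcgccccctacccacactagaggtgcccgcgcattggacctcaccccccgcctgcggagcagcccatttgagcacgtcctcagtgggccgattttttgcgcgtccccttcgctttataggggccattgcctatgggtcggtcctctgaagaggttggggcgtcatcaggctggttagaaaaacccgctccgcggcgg

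The window of Mcts2 held 1 TGCCGC, 247 bases before the start, and 20 CpG dinucleotides. The H13 window held 18 CpG and the exon 1A window 21, and neither window had the 6 letters on either strand. The windows of Nesp, XLas and Gs alpha had 0 matches as well. Of 25996 such windows of all annotated genes, 2562 (9.86%) held at least 1 match, and the median window had 8 CpG. In a window of 2 kb centred on the start, 3 matches were found for Mcts2, 1 for H13, 2 for Nesp, 1 for XLas, 3 for exon 1A and 2 for Gs alpha. This wider window was not counted for other genes, so these numbers have no background to compare with.

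Mcts2 was read almost entirely from the paternal allele in all 19 embryos with allele reads and at a low level. Its count was 158 to 276 reads per embryo, or 9.17 to 13.3 CPM (median 11.5). Per kb of exon this was 14.3 ± 1.49 CPM (SD, n = 23), against 15 ± 0.849 CPM per kb for its host H13 and 174 ± 9.43 CPM per kb for Gnas. Mcts1, the X-linked parent gene whose protein works with DENR in translation reinitiation, was at 18.9 ± 1.02 CPM per kb. None of the 746 runs of 50 bases in Mcts2 occurs in Mcts1, and the longest run shared with 2 Mcts1 transcripts is 29 bases, so reads of that length or shorter could not be split between the copies.

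Of 3312 allele-assigned Mcts2 reads, 3246 were paternal (98.0%) and 66 maternal, with 0 to 8 maternal reads per embryo. Male M+Z+ embryo 3 had 0 maternal of 149 reads, which allows a maternal share of up to 2.01%. Allele-assigned reads made up 85.8% of the Mcts2 counts but 15.8% of the counts of all genes together. The reads carry no molecular identifiers, so intervals and limits cover counting error only.

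The P-score is the paternal share of the allele-assigned reads minus 0.5, so 0.5 is a purely paternal and -0.5 a purely maternal gene. For Mcts2 it was 0.478 and 0.493 in the female M+Z+ embryos. It was 0.495, 0.493 and 0.472 in the female M-Z+ embryos and 0.491, 0.474, 0.490 and 0.467 in the female M-Z- embryos. All 3 female groups overlapped, and the mean of the M-Z- females (0.481 ± 0.0117, SD, n = 4) was within 1 SD of the M+Z+ mean (0.486 ± 0.0103, n = 2).

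In males, the Mcts2 P-score was 0.475, 0.487, 0.5 and 0.475 in M+Z+ embryos. It was 0.488, 0.443 and 0.467 in M-Z+ embryos and 0.476, 0.477 and 0.480 in M-Z- embryos. The male groups overlapped too, and the 3 M-Z- males lay within the range of the M+Z+ males. Summed over each group, the paternal share ran from 96.7% (95% Wilson interval 94.8 to 98.0) in male M-Z+ embryos to 98.7% (97.3 to 99.4) in female M-Z+ embryos. In M-Z- embryos it was 98.1% in females (96.9 to 98.8) and 97.8% in males (95.9 to 98.8, and 97.8% with 95.5 to 98.9 without M-Z- embryo 2), beside 98.5% in female M+Z+ (96.4 to 99.3) and 98.3% in male M+Z+ embryos (97.0 to 99.0).

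A one-sided P-score was not particular to Mcts2. Autosomal genes were compared where their allele-assigned reads averaged 20 or more in an embryo, which left 6456. Of these, 144 (2.23%) were at least as paternal in all 19 embryos as the lowest Mcts2 embryo, and 219 (3.39%) were as far on the maternal side. The genes nearest to Mcts2 in their 6 group-mean P-scores were 2810025M15Rik (Euclidean distance 0.0101), Skp1, a subunit of SCF ubiquitin ligases (0.0137), and Ppig, a cyclophilin (0.0194). None of these 3 is on the imprinted gene lists used here.

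**Figure D1:**
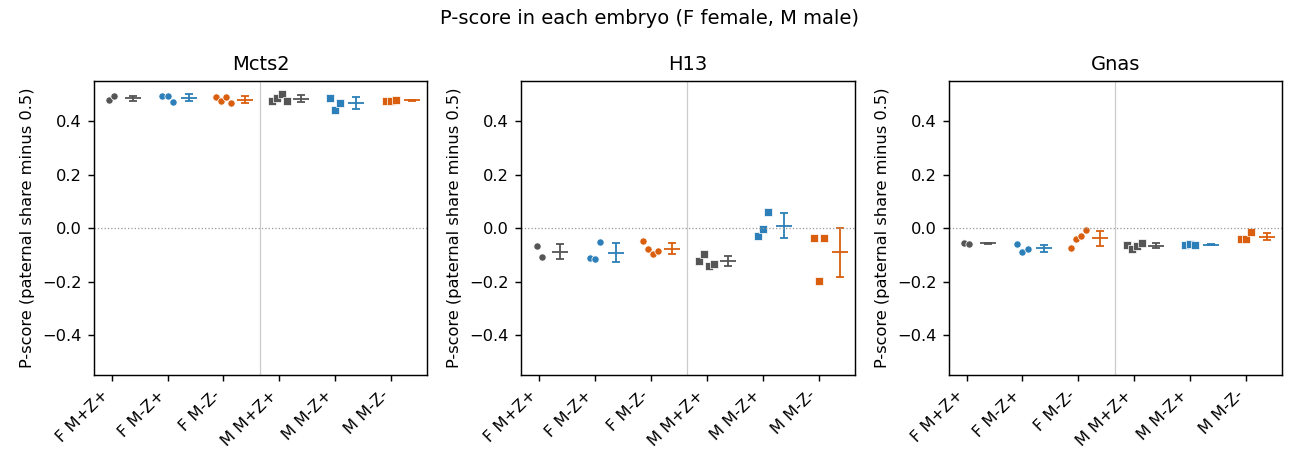
P-score (paternal share minus 0.5) of Mcts2, H13 and Gnas in each of 19 embryos, by sex and genotype (circles females, squares males, grey M+Z+, blue M-Z+, orange M-Z-), with the mean and SD of each group beside its points. Mcts2 lies between 0.443 and 0.5, while the H13 group means lie between -0.123 and 0.009 and the Gnas embryos between -0.091 and -0.007.

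The total level of Mcts2 differed little among genotypes. In females it was 9.17 to 12 CPM in the 6 M+Z+ embryos (median 11), 13.2, 10.7 and 11.4 CPM in M-Z+ embryos, and 11.9, 11.7, 13.3 and 12.8 CPM in M-Z- embryos. The female groups overlapped, with 2 of the 4 M-Z- embryos and 1 of the 3 M-Z+ embryos above the highest M+Z+ embryo. Over all 16871 genes tested in females, 4.29% did not overlap between M-Z- and M+Z+ embryos and 3.27% between M-Z+ and M+Z+ embryos. The log2 fold change of Mcts2 against M+Z+ was 0.20 ± 0.10 (SE) in M-Z- and 0.11 ± 0.11 in M-Z+ females.

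Male Mcts2 levels were 11.5, 10.2, 9.53 and 11.2 CPM in M+Z+ embryos, 12.7, 11.5 and 11.6 CPM in M-Z+ embryos, and 12.5, 9.90 and 10.2 CPM in M-Z- embryos. The log2 fold change was 0.07 ± 0.12 in M-Z- and 0.14 ± 0.12 in M-Z+ males, and without M-Z- embryo 2 the log2 difference of the M-Z- and M+Z+ means was 0.10. The M-Z+ males lay just above the M+Z+ males without overlap (means 11.9 and 10.6 CPM), and the M-Z- males overlapped them. Of all 16664 genes tested in males, 12.4% did not overlap between M-Z+ and M+Z+ embryos and 10.8% between M-Z- and M+Z+ embryos. The M-Z- and M-Z+ comparisons share their M+Z+ embryos within each sex and are not independent of each other.

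H13, the host gene, was read from both alleles with more maternal than paternal reads. Its level and allele reads are sums over all exons of the gene, so different forms of the transcript cannot be told apart. Of 6329 allele-assigned reads 2653 were paternal (41.9%), and the P-score was below 0 in 18 of 19 embryos. A pooled P-score below that of H13 was found for 13% of the 6456 autosomal genes, and 10.3% of them were below 0 in all embryos. Each embryo had 246 to 495 allele-assigned H13 reads, so the 95% Wilson interval of a single embryo was 8.51 to 12.4 percentage points wide.

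The H13 P-score was -0.069 and -0.108 in the female M+Z+ embryos. It was -0.111, -0.116 and -0.052 in female M-Z+ embryos and -0.047, -0.077, -0.098 and -0.086 in female M-Z- embryos. The female groups overlapped, with means of -0.088 ± 0.0281 (SD, n = 2), -0.093 ± 0.0356 (n = 3) and -0.077 ± 0.0217 (n = 4).

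Among males, the H13 P-score was -0.122, -0.096, -0.140 and -0.133 in M+Z+ embryos. It was -0.030, -0.005 and 0.062 in M-Z+ embryos, all above the M+Z+ males, and 6.3% of genes were likewise without overlap in this comparison. In M-Z- males it was -0.039, -0.197 and -0.037, so 2 embryos lay above and embryo 2 below the M+Z+ range. Summed over the group, the paternal share was 37.7% (95% Wilson interval 35.3 to 40.2) in M+Z+ males, 51.3% (47.9 to 54.6) in M-Z+ males and 40.9% (37.6 to 44.3) in M-Z- males, or 46.2% (42.1 to 50.4) in M-Z- males without embryo 2. The mean P-score of M-Z- males was 0.0322 above that of M+Z+ males with embryo 2, the one with the highest erythroid markers, and 0.0855 above it without that embryo, and ran from 0.00505 to 0.0855 with 1 embryo left out at a time. The part of blood content in this value was not tested.

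Scaled to the allele-assigned total of each embryo (RPM), the maternal H13 reads were 73.5 ± 3.79 RPM in male M+Z+ embryos (SD, n = 4) and 55.7 ± 4.70 RPM in male M-Z+ embryos (n = 3). The paternal reads were 44.6 ± 5.0 and 58.1 ± 9.20 RPM in the same groups. The range of the maternal reads was 51.8 to 60.9 RPM in M-Z+ males and 68.9 to 78.1 RPM in M+Z+ males, and that of the paternal reads 48.2 to 66.4 and 39.9 to 50.2 RPM. In M-Z- males the maternal reads were 64.2 ± 12.7 and the paternal reads 44.3 ± 11.3 RPM, and the means without embryo 2 were 58.1 and 49.9 RPM. In females the paternal reads were 48.5 ± 2.94 in M+Z+, 51.3 ± 4.95 in M-Z+ and 52.0 ± 2.42 RPM in M-Z- embryos, and the maternal reads were 69.3 ± 3.85, 74.7 ± 3.99 and 71.3 ± 8.38 RPM.

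**Figure D2:**
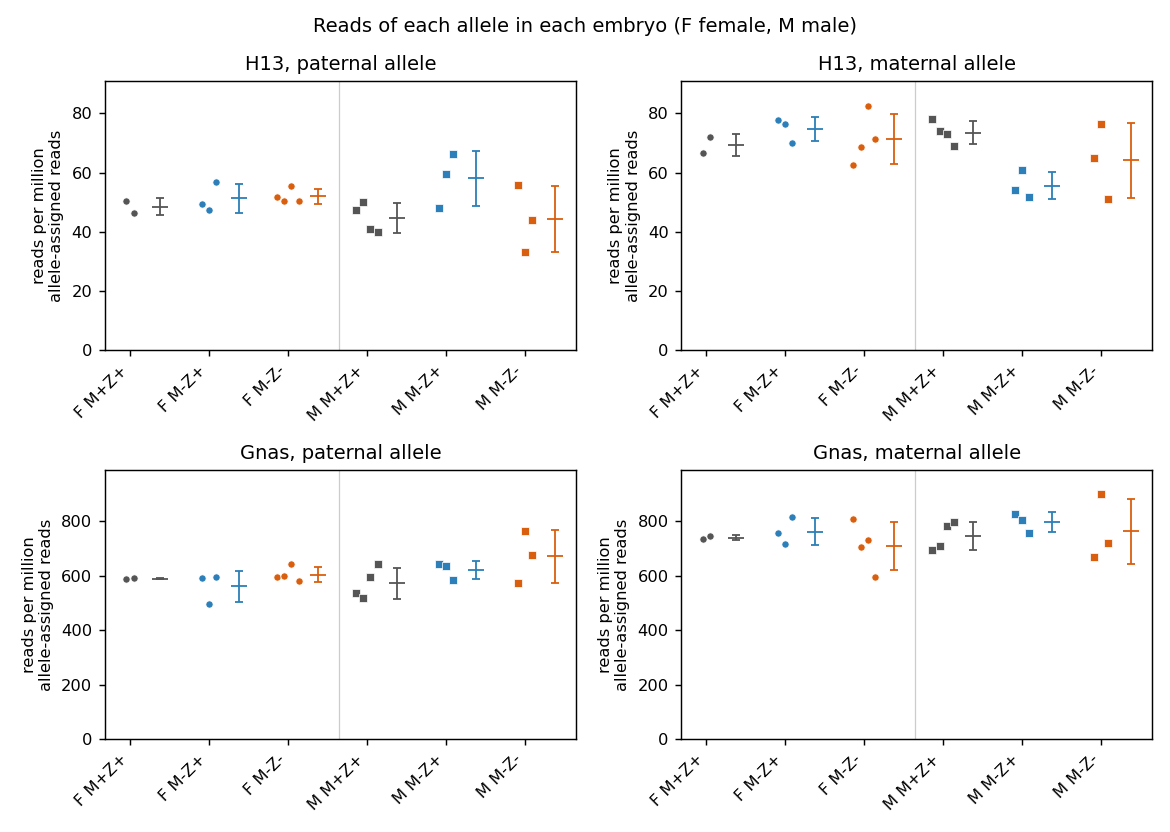
Paternal and maternal reads of H13 (top) and Gnas (bottom), scaled to the allele-assigned reads of each embryo, with the mean and SD of each group beside its points. Maternal H13 reads have their lowest means in male M-Z+ (55.7) and male M-Z- embryos (64.2), and each Gnas group overlaps the M+Z+ group of its sex on both alleles.

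The total level of H13 was 140 to 158 CPM in female M+Z+ embryos (median 152), and 152, 149 and 165 CPM in female M-Z+ embryos. It was 148, 146, 142 and 145 CPM in female M-Z- embryos, all within the M+Z+ range. Male levels were 152, 143, 129 and 161 CPM in M+Z+ embryos, 156, 152 and 151 CPM in M-Z+ embryos and 162, 144 and 137 CPM in M-Z- embryos. Each mutant group overlapped the M+Z+ group of its sex. The log2 fold changes were -0.05 ± 0.04 and 0.04 ± 0.05 (SE) in M-Z- and M-Z+ females and 0.05 ± 0.08 in both M-Z- and M-Z+ males, and without M-Z- embryo 2 the log2 difference of the male M-Z- and M+Z+ means was 0.03. The male M-Z+ embryos, whose P-scores lay above those of the M+Z+ males, had total H13 levels inside the M+Z+ range.

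Gnas was the most abundant of the 3 genes, at 1318 to 1644 CPM, and slightly more maternal than paternal in every embryo with allele reads. Of 72040 allele-assigned reads 32038 were paternal (44.5%), and each embryo's P-score lay between -0.091 and -0.007. With 3061 to 4860 allele-assigned reads per embryo, the 95% Wilson interval of a single embryo was 2.79 to 3.53 percentage points wide. Across the 6456 autosomal genes, 16.6% had a lower pooled P-score than Gnas.

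In female M+Z+ embryos the Gnas P-score was -0.055 and -0.059. It was -0.061, -0.091 and -0.077 in female M-Z+ embryos and -0.076, -0.041, -0.031 and -0.007 in female M-Z- embryos. The 3 M-Z+ females lay below both M+Z+ females, in a comparison where 20.1% of genes did not overlap. Embryos 2, 3 and 4 of the M-Z- females were nearer 0 than either M+Z+ female and embryo 1 was further from 0, so these groups overlapped (14.2% of genes did not).

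Male Gnas P-scores were -0.063, -0.078, -0.068 and -0.054 in M+Z+ embryos, and -0.062, -0.059 and -0.064 in M-Z+ embryos. They were -0.039, -0.040 and -0.016 in M-Z- embryos, all nearer 0 than the M+Z+ males, and 8.33% of genes did not overlap in this comparison. The difference of the means from M+Z+ embryos was 0.018 in M-Z- females and 0.0341 in M-Z- males, or 0.0383 in males without M-Z- embryo 2. The female value was 0.0304 without M-Z- embryo 1 and 0.00742 without M-Z- embryo 4. Summed over the group, the paternal share was 44.3% in M+Z+ females (95% Wilson interval 43.2 to 45.4) and 45.9% in M-Z- females (45.1 to 46.7). It was 43.5% in M+Z+ males (42.7 to 44.2) and 46.8% in M-Z- males (45.9 to 47.8), or 47.3% without embryo 2 (46.1 to 48.5).

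The total Gnas level did not separate the genotypes. Female levels were 1335 to 1472 CPM in M+Z+ embryos (median 1405), 1437, 1410 and 1468 CPM in M-Z+ embryos, and 1464, 1335, 1400 and 1318 CPM in M-Z- embryos. In males they were 1341, 1346, 1470 and 1508 CPM in M+Z+ embryos, 1522, 1488 and 1463 CPM in M-Z+ embryos, and 1332, 1644 and 1467 CPM in M-Z- embryos. The highest value again belonged to male M-Z- embryo 2, without which the log2 difference of the male M-Z- and M+Z+ means was -0.02. The fitted log2 fold changes were -0.03 ± 0.04 and 0.02 ± 0.05 (SE) in M-Z- and M-Z+ females and 0.11 ± 0.10 and 0.05 ± 0.10 in M-Z- and M-Z+ males.

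**Figure D3:**
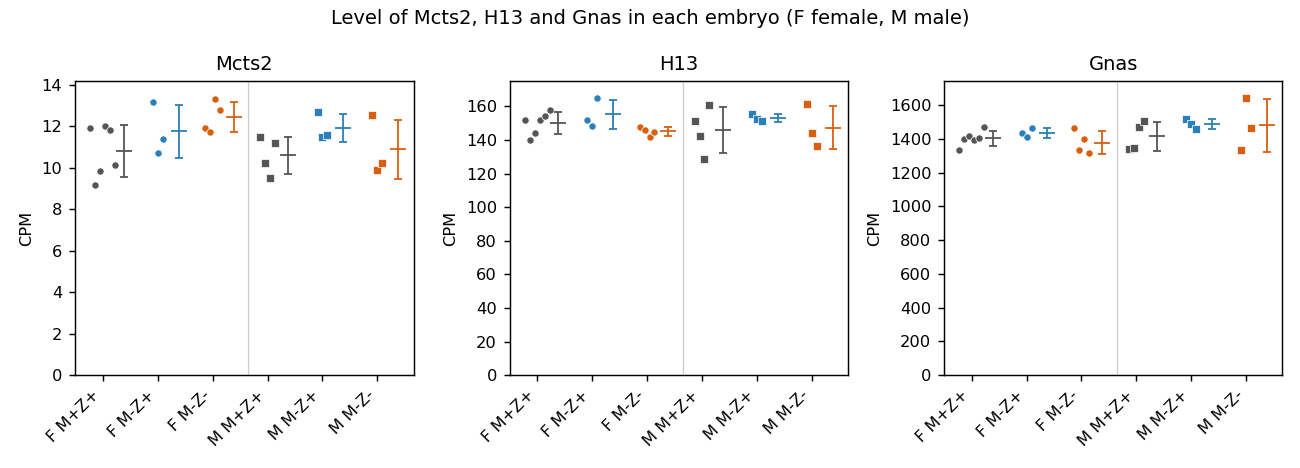
Level of Mcts2, H13 and Gnas in CPM in each embryo, by sex and genotype (circles females, squares males), with the mean and SD of each group beside its points and axes that start at 0. Mcts2 lies at 9.17 to 13.3, H13 at 129 to 165 and Gnas at 1318 to 1644 CPM, and each mutant group overlaps the M+Z+ group of its sex except Mcts2 in male M-Z+ embryos.

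Levels were tested between the sexes in M+Z+ embryos, where no genotypes are compared. In these embryos, the log2 difference of females from males was 0.03 ± 0.10 (SE) for Mcts2, 0.04 ± 0.05 for H13 and -0.01 ± 0.06 for Gnas. None of them passed the edgeR test (adjusted p = 0.980, 0.956 and 0.986), which called 14 of 17139 genes (0.0817%), 7 higher (0.0408%) and 7 lower (0.0408%) in females. The 95% interval of the difference was -0.16 to 0.21 for Mcts2, -0.07 to 0.14 for H13 and -0.13 to 0.10 for Gnas. The difference between the sexes in the genotype effect draws on the values by which the genes were chosen and is given without a test. For M-Z- against M+Z+ this interaction was 0.13 ± 0.15 for Mcts2, -0.09 ± 0.08 for H13 and -0.13 ± 0.09 for Gnas, and for M-Z+ it was -0.04 ± 0.15, -0.01 ± 0.09 and -0.04 ± 0.10. Without male M-Z- embryo 2 the M-Z- values were 0.10 ± 0.16 for Mcts2, -0.07 ± 0.09 for H13 and -0.01 ± 0.07 for Gnas. Over all genes these interactions gave 0 calls with edgeR and 0 with DESeq2 (0% of 17139 genes), with 1107 and 625 genes at an unadjusted edgeR p below 0.05.

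P-scores helped to choose the 3 genes, so their differences between the sexes are a description without a test. The mean of females minus that of males was 0.00123 for Mcts2, 0.0347 for H13 and 0.00889 for Gnas in M+Z+ embryos. In M-Z- embryos it was 0.00294, 0.0137 and -0.00722, and in M-Z+ embryos 0.0206, -0.102 and -0.0146. Each M-Z- difference changed sign when 1 embryo was left out, with ranges of -0.000434 to 0.00737 for Mcts2, -0.0395 to 0.0409 for H13 (-0.0395 without male M-Z- embryo 2) and -0.0178 to 0.00522 for Gnas. H13 in M-Z+ embryos had the widest gap of these 9, with -0.093 ± 0.0356 in 3 females and 0.009 ± 0.0473 in 3 males, and no overlap between the sexes. Of the 6456 autosomal genes, 9.79% had no overlap between the M-Z+ sexes, 12.2% between the M+Z+ sexes and 6.6% between the M-Z- sexes. With edgeR on allele reads over all these genes, 0 genes (0%) were called between the sexes in M+Z+ and 0 (0%) in M-Z+ embryos, with 200 and 345 genes at an unadjusted p below 0.05. In M-Z- embryos 55 genes (0.852%) were called and all 55 were toward the paternal allele in females. No other tool was run on the allele reads.

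Other genes at the 2 loci were tested for level with edgeR, and a call needed an adjusted p below 0.05 and a log2 difference of 0.5 or more in either direction. In M-Z- embryos 95 of 16871 genes were called in females (0.563%), 48 higher (0.285%) and 47 lower (0.279%), and 65 of 16664 in males (0.39%), 44 higher (0.264%) and 21 lower (0.126%). Against M+Z+, the M-Z+ females gave 10 calls (0.0593%) and the M-Z+ males 8 (0.048%), and all were higher. The 5 counted genes nearest to H13 on each side were Defb45, Defb36, Defb25, Rem1 and 1700030C14Rik before it and Id1, Cox4i2, Bcl2l1, Gm32211 and Tpx2 after it. Of these 10, 5 were expressed enough to test and 0 were called in any genotype comparison by edgeR or DESeq2. An unadjusted edgeR p below 0.05 was found for 1 of the 5 in M-Z- females (20%, against 15.5% of all genes), 3 in M-Z- males (60%, against 17%), 0 in M-Z+ females (against 6.64%) and 1 in M-Z+ males (20%, against 7.86%). The values of Id1, an inhibitor of helix-loop-helix factors and the next gene after H13, were 0.26 ± 0.07 in M-Z- females (edgeR adjusted p = 0.0686) and 0.19 ± 0.07 in M-Z- males (adjusted p = 0.225). Bcl2l1, which encodes the survival factor BCL-XL, was at 0.00 ± 0.05 and 0.14 ± 0.05. Cox4i2, an isoform of a cytochrome c oxidase subunit, was at 0.22 ± 0.20 and 1.15 ± 0.39 (edgeR adjusted p = 0.657 and 0.184).

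Around Gnas, 9 of 12 neighbours could be tested. The genes outside it that were tested were Stx16 and Npepl1 before it and Nelfcd, Ctsz, Tubb1, Atp5e and Prelid3b after it, and 0 of these 7 were called by edgeR or by DESeq2, with 1 at an unadjusted edgeR p below 0.05 in each genotype comparison. Of all genes tested, the share at such a p was 15.5% in M-Z- females, 17% in M-Z- males, 6.64% in M-Z+ females and 7.86% in M-Z+ males. The other pair of tested neighbours, Gm30189 and Gnasas1, lie within the locus or overlap it, and at least 1 tool called each. Gm30189 is a gene on the minus strand at chr2:174146407-174152888, inside the Gnas span. Its start is the higher coordinate, with 361 bases between it and the start of exon 1A, and it runs away from exon 1A.

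Gm30189 rose in M-Z- embryos of both sexes. Its level was 8.51 to 11.4 CPM in female M+Z+ embryos and 11.9, 16.8, 15.5 and 18.1 CPM in the M-Z- females. Male levels were 9.05, 8.69, 7.90 and 9.05 CPM in M+Z+ and 13.4 to 14.3 CPM in the 3 M-Z- embryos. All M-Z- embryos were above all M+Z+ embryos of their sex, where 4.29% of all genes did not overlap in females and 10.8% in males. The log2 fold change was 0.68 ± 0.12 in females (edgeR adjusted p = 0.0064) and 0.70 ± 0.12 in males (adjusted p = 0.0232). M-Z+ values were 0.01 ± 0.14 in females and 0.15 ± 0.13 in males, and neither was called. The sum of 5 liver markers was 2366 to 3868 CPM in M-Z- females against 3155 to 6779 CPM in M+Z+ females, and 1627 to 4225 against 4433 to 6421 CPM in males. The sum of 4 yolk sac markers, which share Ttr with the liver list, was 222 to 359 against 332 to 619 CPM in females, and 154 to 363 against 393 to 531 CPM in males. The erythroid markers were at 5830 to 7741 against 3053 to 9483 CPM in females, and 5867 to 26272 against 2298 to 5423 CPM in males. The part of these cell types in the level of Gm30189 was not tested. Without M-Z- embryo 2 the male value of Gm30189 was 0.63 ± 0.13 and no longer passed (edgeR adjusted p = 0.0607). The male call was also lost without M+Z+ embryo 1, 2 or 3, with just the 2 groups in the fit and with a replicate block, and the female call with the block, while the log2 fold change ran from 0.63 to 0.74 in males and from 0.60 to 0.80 in females over all alternatives.

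The P-score of Gm30189 also separated M-Z- from M+Z+ embryos. It was 0.405 and 0.46 in female M+Z+ embryos and 0.412 to 0.5 in male M+Z+ embryos. It was 0.372, 0.078, -0.012 and -0.059 in female M-Z- embryos and 0.158, 0.095 and -0.128 in male M-Z- embryos. The M-Z- embryos were all below the M+Z+ embryos of their sex, with a mean difference of -0.338 in females and -0.423 in males, and 14.2% and 8.33% of genes were without overlap in these comparisons. On allele reads, edgeR called the male change of Gm30189 (adjusted p = 0.00112, and 0.0027 without M-Z- embryo 2) but not the female one (adjusted p = 0.0724), which has 2 M+Z+ embryos. Without M-Z- embryo 1 the female difference was -0.43 and passed (edgeR adjusted p = 0.00252). These tests called 113 of 6456 genes in M-Z- females (1.75%), 101 toward the maternal allele (1.56%) and 12 toward the paternal allele (0.186%), and 167 in M-Z- males (2.59%), 160 toward the maternal allele (2.48%) and 7 toward the paternal allele (0.108%). Each embryo had 11 to 59 allele-assigned Gm30189 reads. Among the M-Z- females, embryo 1 had the highest Gm30189 P-score and the lowest Gnas P-score, and embryo 4 had the lowest Gm30189 and the highest Gnas P-score. Among the M-Z- males, embryo 3 likewise had the lowest Gm30189 and the highest Gnas P-score. Embryo 1 of these males had the highest Gm30189 P-score, but embryo 2 had the lowest Gnas P-score (-0.0401, against -0.0394 in embryo 1). With 4 females and 3 males this is a description of the values only.

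Gnasas1, the antisense gene also called Nespas, lies at chr2:174106738-174120937 on the minus strand and overlaps the first exons of Gnas. The strand setting of the counting was reported but that of the library kit was not, so reads of Gnas, Gnasas1 and Gm30189 may not have been fully told apart where they overlap. Gnasas1 was at 1.69 to 2.36 CPM in male M+Z+ and 3.48 to 3.93 CPM in male M-Z- embryos, with 29 to 64 reads per embryo. Its log2 values were 0.96 ± 0.20 in M-Z- males, with an edgeR adjusted p of 0.0621, and 0.18 ± 0.18 in M-Z- females (adjusted p = 0.688). The 3 M-Z+ males, at 3.58, 2.84 and 2.5 CPM, were also above the M+Z+ males, in a comparison where 12.4% of all genes did not overlap. The log2 values were 0.59 ± 0.20 in M-Z+ males (edgeR adjusted p = 0.606, unadjusted p = 0.0129) and 0.10 ± 0.19 in M-Z+ females (adjusted p = 0.932). DESeq2 called it in M-Z- males (adjusted p = 0.0136), and edgeR did so without male M+Z+ embryo 4 (adjusted p = 0.0391) or without M-Z- embryo 3 (adjusted p = 0.0265). Without M-Z- embryo 2 the male value was 0.96 ± 0.23 (edgeR adjusted p = 0.12). The P-score of Gnasas1, where more than 10 reads allowed one, was 0.192 to 0.5 in 6 embryos.

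**Figure D4:**
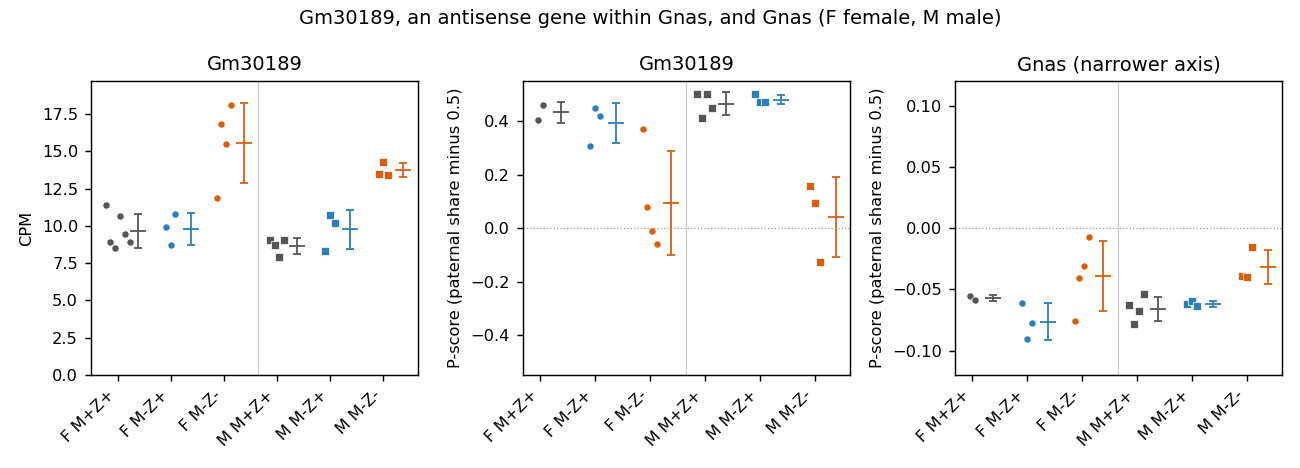
Level (CPM, left) and P-score (middle) of Gm30189, and P-score of Gnas on a narrower axis (right), in each embryo by sex and genotype, with the mean and SD of each group beside its points. All M-Z- embryos are above the M+Z+ embryos of their sex in Gm30189 level and below them in its P-score, while Gnas lies between -0.091 and -0.007.

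Mcts2 and H13 are 1 of several pairs of an imprinted gene in the intron of a host gene. Of the 5 other intronic genes, 4 were called higher in M-Z- embryos of both sexes. Over all genes tested, edgeR called 0.285% higher in M-Z- females and 0.264% in M-Z- males. In M-Z+ embryos 0 of the 9 other genes of these pairs were called in either sex by edgeR or DESeq2, with 1 in each sex at an unadjusted edgeR p below 0.05. Nnat, a membrane protein of neurons, had a log2 fold change of 0.83 ± 0.06 in M-Z- females and 1.11 ± 0.13 in M-Z- males, or 0.90 ± 0.08 in males without M-Z- embryo 2. Inpp5f, a phosphoinositide phosphatase counted here over the whole gene, whose imprinted variant starts in an intron, was at 0.79 ± 0.04 and 0.82 ± 0.07, and at 0.76 ± 0.06 in males without that embryo. Nap1l5, related to a nucleosome assembly protein, was at 0.75 ± 0.11 and 1.03 ± 0.12, and at 0.84 ± 0.09 without it. Zrsr1, related to a splicing factor, was at 0.80 ± 0.10 and 0.66 ± 0.13, and the male value was no longer called without embryo 2 (0.65 ± 0.14, edgeR adjusted p = 0.0662). The male call of Zrsr1 was also lost without M-Z- embryo 1 or M+Z+ embryo 1 or 2, with just the 2 groups in the fit and with a replicate block, and its log2 fold change ran from 0.54 to 0.73 over all alternatives. The liver, yolk sac and erythroid sums given beside Gm30189 are from the same embryos, and their part in these values was not tested. The noncoding Peg13 did not pass (0.35 ± 0.09, edgeR adjusted p = 0.0748 in females, and 0.28 ± 0.07, adjusted p = 0.117 in males).

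Of the 4 other host genes, Blcap, the host of Nnat, fell by 0.92 ± 0.05 in M-Z- females (edgeR adjusted p = 3.05e-09) and by 0.70 ± 0.07 in M-Z- males (adjusted p = 9.41e-05). Herc3, Commd1 and Trappc9 were not called. Values for Herc3, the host of Nap1l5, were -0.20 ± 0.06 in M-Z- females and -0.13 ± 0.09 in M-Z- males. For the pair on chromosome 2, Mcts2 was at 0.20 ± 0.10 and 0.07 ± 0.12 in M-Z- females and males and H13 at -0.05 ± 0.04 and 0.05 ± 0.08. The difference between pairs was not tested, because Mcts2 and H13 were chosen for an allelic state that largely held across the genotypes.

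Among the intronic and host genes with enough allele reads, edgeR called 2 of 5, Inpp5f and Peg13, toward the maternal allele in M-Z- embryos of both sexes. Over all 6456 genes it called 1.56% toward the maternal allele in M-Z- females and 2.48% in M-Z- males. The Inpp5f P-score was 0.291 and 0.309 in female M+Z+ and -0.062 to -0.040 in female M-Z- embryos (edgeR adjusted p = 5.47e-15). It was 0.270 to 0.312 in male M+Z+ and -0.066 to -0.057 in male M-Z- embryos (adjusted p = 1.58e-16). That of Peg13 was 0.497 to 0.5 in M+Z+ embryos of both sexes, 0.107 to 0.445 in female M-Z- and 0.033 to 0.335 in male M-Z- embryos. Without male M-Z- embryo 2 both male calls held, with an adjusted p of 2.16e-14 for Inpp5f and 3.98e-05 for Peg13. All M-Z- embryos were below all M+Z+ embryos of their sex for both genes (14.2% of genes did not overlap in females and 8.33% in males), whereas the Mcts2 groups overlapped. In M-Z+ embryos 0 of the 5 tested were called in either sex, where edgeR called 10 genes in females (0.155%), 1 toward the paternal (0.0155%) and 9 toward the maternal allele (0.139%), and 11 in males (0.17%), all toward the maternal allele.

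**Figure D5:**
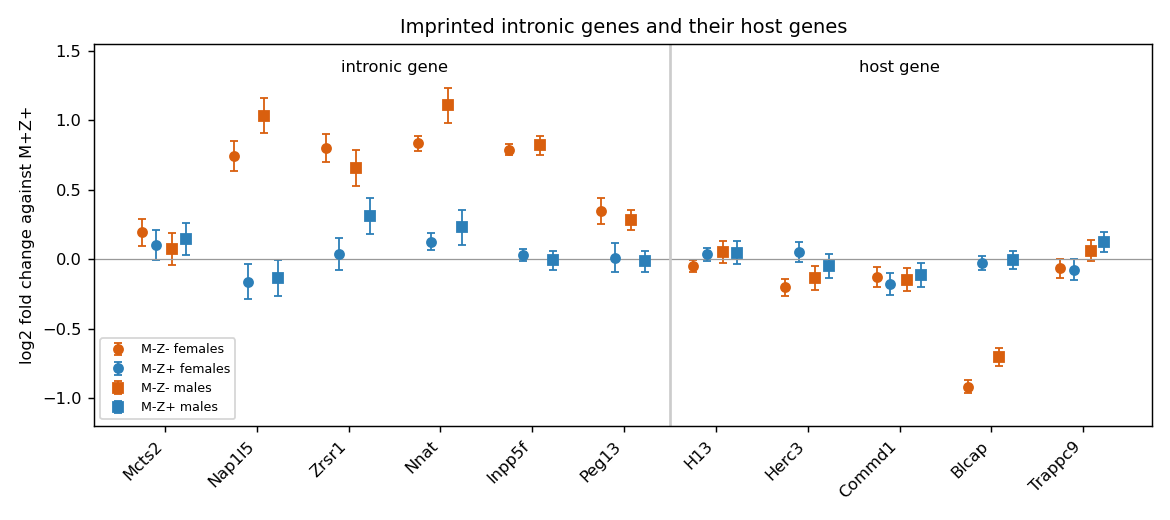
Log2 fold change against M+Z+ embryos of the same sex (bars are SE) for imprinted intronic genes, left, and host genes, right, in M-Z- (orange) and M-Z+ (blue) embryos of both sexes (circles females, squares males). In M-Z- embryos Nnat, Inpp5f, Nap1l5 and Zrsr1 lie between 0.66 and 1.11 and Blcap at -0.92 and -0.70, while Mcts2 and H13 lie between -0.05 and 0.20.

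Of 74 other genes of Gs and cAMP signalling, 70 could be tested in females and 69 in males, and edgeR called 0 in every genotype comparison. In M-Z- embryos 15 genes in females (21.4%, against 15.5% of all genes) and 16 in males (23.2%, against 17% of all genes) had an unadjusted p below 0.05. The median log2 fold changes of 0.01 in females and 0.04 in males compare with 0.00 over all genes in each sex. DESeq2 called 0 in females and 1 in males, the adenylyl cyclase Adcy4, for which edgeR gave 0.68 ± 0.16 (adjusted p = 0.093). Gnal, the Gs-like alpha subunit of olfactory and striatal neurons, had the lowest adjusted p in females (-0.37 ± 0.08, edgeR adjusted p = 0.0221) but was under the minimum fold change, and was at -0.07 ± 0.11 in males (adjusted p = 0.791). All 9 adenylyl cyclases, 8 protein kinase A genes and 11 cAMP phosphodiesterases on the list were expressed enough to test. Of 23 receptors that couple to Gs, 19 were tested in females and 18 in males. Vipr1, a receptor for vasoactive intestinal peptide, was at 0.79 ± 0.28 and 0.99 ± 0.28 in M-Z- females and males (edgeR adjusted p = 0.187 and 0.135).

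Of 14 genes of signal peptide processing, 13 were tested, and edgeR and DESeq2 called 0 in every genotype comparison. An unadjusted edgeR p below 0.05 was found for 1 in M-Z- females (7.69%, against 15.5% of all genes) and 3 in M-Z- males (23.1%, against 17%). Sec11c, a catalytic subunit of the signal peptidase complex, was at -0.41 ± 0.11 in M-Z- males (edgeR adjusted p = 0.118). The presenilin-like relatives of H13 included Sppl3 at 0.08 ± 0.07 in M-Z- females and 0.19 ± 0.07 in M-Z- males, neither called. All 7 other genes of translation reinitiation were tested and 0 were called by either tool. In M-Z- embryos of each sex 1 had an unadjusted edgeR p below 0.05 (14.3%, against 15.5% of all genes in females and 17% in males). Mcts1 was at 0.01 ± 0.07 in M-Z- females and -0.01 ± 0.08 in M-Z- males.

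Across the 23 embryos, the genes whose level followed Mcts2 most closely among 15503 were Slc10a4 (Pearson r of log2(CPM + 1) 0.788), Kat8 (0.787) and Hoxb4 (0.780). For H13 they were Chd6 (0.883), Adam22 (0.877) and Huwe1 (0.869), and for Gnas Bmp6 (0.870), Ly6h (0.792) and Trpc1 (0.786). Mcts2 and its host H13 had r = 0.461, H13 and Gnas 0.021, and Mcts2 and Gnas -0.296. These correlations pool the sexes and genotypes, share the library totals and are given as a description only. In allelic state, the genes nearest to H13 were Rnase4 (distance 0.0428), Kcnip3 (0.0602) and Wnt8b (0.0618), and those nearest to Gnas were Ndrg3 (0.0208), Akna (0.0293) and Prex2 (0.0294), of which Kcnip3 and Ndrg3 are on chromosome 2.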

How the data were processed

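Total RNA of whole embryos was made into TruSeq RNA libraries. Per the labels, the authors aligned reads to mm9 with STAR 2.7.8a and counted them with featureCounts (Subread 2.0.1). The deposited values are raw read counts per gene, with an exon length in bases. The authors made the allele counts separately, from uniquely mapped reads aligned to an mm9 genome with strain variants (GATK) masked and split by SNPsplit into paternal (DBA) and maternal (129) reads, so a share rests only on reads over a variant. Columns headed WT were read as M+Z+. Among the female allele counts, 8 columns of 4 M+Z+ embryos share 2 pairs of header names, match no single embryo and were not used.

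CPM is the count over the total. Genotypes were compared within a sex with edgeR 4.0.16 (quasi-likelihood, TMM, filterByExpr, Benjamini-Hochberg over all tested genes), and sexes in 1 fit over all 23 embryos, with a minimum log2 difference of 0.3 for calls between the sexes. P-scores needed more than 10 reads. Allele reads were tested by edgeR over 6456 autosomal genes, and a call needed a P-score change of 0.1 or more besides the adjusted p of 0.05. Scripts were tested on simulated data, with changes set in genes above a minimum count. For M-Z- against M+Z+, 82% of 1.5-fold changes were called in females and 55% in males. For 2-fold changes it was 97% and 94%. Between the M-Z- sexes, 64% of P-score shifts of 0.2 were called, so smaller changes can be missed. Named were the 3 genes, Zfp57, genes of the lists, the 5 nearest genes on each side and the 3 genes most alike in level or P-score. Members and lists were chosen with earlier results of these data known. No 2 columns were identical. Alternatives were other scalings, filters, DESeq2 1.42.0, a replicate block and leaving out each embryo, and those of the allelic genotype comparisons were chosen after seeing the data.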

Additional observations from a re-analysis of the deposited data

Results flagged for a closer look

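Of 58 groups of 4 to 10 embryos examined, 4 held an embryo far from the rest, and chance alone gives about 1 in 20. Paternal Mcts2 reads were 78.4 RPM of the allele-assigned reads in female M-Z- embryo 3, against 64.9 to 66.8 RPM in the other M-Z- females. Zfp57 was at 99.1 CPM in female M+Z+ embryo 1, against 52.7 to 68.4 CPM in the others of its group. Mcts1 was at 31.5 CPM in female M+Z+ embryo 2, against 26.8 to 28.3 CPM. Blcap was at 74.6 CPM in male M+Z+ embryo 4, against 66.1 to 67.1 CPM.

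The P-score of Gnas in M-Z+ embryos differed from the M+Z+ mean by -0.0195 in females and by 0.00399 in males, with every M-Z+ female below and every M-Z+ male above the mean of its sex. The gap between the sexes was -0.0235, and the difference was not tested.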

How the results depend on the processing

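The sex difference in level of Mcts2, H13 and Gnas in M+Z+ embryos was not called under any alternative run, while the number of genes called moved with the method. In M-Z- females the 95 calls of level became 212 with no minimum fold change and 143 with DESeq2. In M-Z- males the 65 became 99 with no filter on low counts, 182 with DESeq2 and 40 when the fit held just the 2 groups compared. In M-Z+ embryos the 10 calls in females became 3 when the fit held just the 2 groups, and the 8 in males became 13 with DESeq2. Replicate numbers did not pair embryos: over 48 same-numbered pairs the correlation of deviations ran from -0.466 to 0.635 (median -0.028), and 4 of 23 embryos matched their own number best. With the replicate number as a block, calls were 52 and 128 in M-Z- females and males, 4 and 41 in M-Z+ females and males, and 1 between the M+Z+ sexes in paternal share (0 without it), and the H13 interaction for M-Z+ was 0.0031. Under the block Gm30189 lost its call in level (adjusted p = 0.142 in females and 0.0514 in males), as did Zrsr1 in males (0.0574), and with just 2 groups in the fit these male values were 0.0598 for Gm30189 and 0.143 for Zrsr1. Paternal Gnas reads in M-Z- females differed from M+Z+ by 0.04 on the log2 scale with the allele-assigned total and by -0.0355 with TMM scaling. The female allelic change of Gm30189 passed when centred on the autosomal median (adjusted p = 0.0499), and its adjusted p ran from 0.00252 to 0.506 over all alternatives.

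Leaving out 1 embryo at a time gave 55 to 116 calls in M-Z- females (55 without M-Z- embryo 2), 5 to 12 in M-Z+ females (5 without M+Z+ embryo 6 or M-Z+ embryo 1, 6 without M+Z+ embryo 5), 41 to 899 in M-Z- males (899 without M-Z- embryo 3, 144 without M+Z+ embryo 4, 41 without M+Z+ embryo 1 or 2) and 0 to 54 in M-Z+ males (54 without M+Z+ embryo 4, 4 without M+Z+ embryo 3, 3 without M-Z+ embryo 1, 0 without any of the other 4). Allelic calls ran from 0 to 2 between the M+Z+ sexes (2 without female embryo 1) and between the M-Z+ sexes (2 without female embryo 1, 1 without male embryo 1). Sex differences in level ran from -0.018 to 0.073 for Mcts2, -0.016 to 0.079 for H13 and -0.035 to 0.010 for Gnas, and the interaction for M-Z+ from -0.126 to 0.025 for Mcts2 and -0.055 to 0.040 for H13. P-score differences between the sexes ran from -0.00605 to 0.0085 for Mcts2 in M+Z+ embryos, -0.000434 to 0.00737 for Mcts2 in M-Z- embryos, -0.0395 to 0.0409 for H13 in M-Z- embryos (lowest without male embryo 2) and -0.0178 to 0.00522 for Gnas in M-Z- embryos. In M-Z- males the level call of Gm30189 was lost without M+Z+ embryo 1, 2 or 3 (adjusted p = 0.0816, 0.0936 and 0.0925) or M-Z- embryo 2 (0.0607), and that of Zrsr1 without M+Z+ embryo 1 or 2 (0.126 and 0.147) or M-Z- embryo 1 or 2 (0.0599 and 0.0662). Over all alternatives the adjusted p in M-Z- males ran from 0.000247 to 0.0936 for Gm30189, from 0.000684 to 0.147 for Zrsr1 and from 0.0136 to 0.208 for Gnasas1. The causes were not tested.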
